A study of Mus musculus with 2 samples.

Results

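Keratins are the intermediate filament proteins of epithelial cells. A filament is built from pairs of 1 type I (acidic) and 1 type II (basic to neutral) chain, so the chains are made in matched combinations that mark the kind and layer of an epithelium. In the urinary tract they belong to the urothelium, where Krt5 marks basal cells, Krt14 a subset of basal cells, and Krt20 the superficial cells. Simple epithelia such as ducts rely on Krt8 with Krt18 or Krt19, epidermis on Krt5 with Krt14 and then Krt1 with Krt10, and hair on a set of its own.

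The keratin genes were all genes on the array whose name in the scanner files is Krt followed only by digits. There were 47 of them, measured by 60 probes, among 31870 genes on the array. They comprised 26 type I and 21 type II genes. Of the type I genes 25 had their probe on chromosome 11 and Krt18 on chromosome 15, and 20 of the type II genes lay on chromosome 15. Each of 12 genes had several probes and was represented by the brightest, judged by the mean of its processed signals.

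RNA of ureters dissected from NMRI mouse embryos at E18.5 was compared between mutant (cDKO) and control embryos on 2 Agilent 2-colour arrays, with both RNAs on each array. The cDKO embryos carried Tbx18(cre/+) together with Tbx2(fl/fl) and Tbx3(fl/fl). The control embryos carried Tbx18(+/+) together with Tbx2(fl/?) and Tbx3(fl/?), which leaves 1 allele of Tbx2 and of Tbx3 unspecified and includes no Cre allele. Loss of the floxed genes and the Cre allele of Tbx18 therefore cannot be told apart here. Tbx18 drives Cre in ureteric mesenchyme, whereas keratins are genes of epithelium. One array compared males, with cDKO RNA in the red dye, and the other compared females, with cDKO RNA in the green dye, so sex, dye orientation and replicate run together. They are called the male and the female array. The labels do not state how many embryos gave each RNA. The p-values of limma rest on the spread between these 2 arrays, for each gene largely pooled with that of all probes. They do not measure the spread between embryos.

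On the arrays, 72.1% to 81.6% of gene spots were well above background. Tbx2, Tbx3 and Tbx18 were higher in cDKO RNA, with mean log2 ratios of 0.74, 0.66 and 0.81 (limma adjusted p = 0.0273, 0.0305 and 0.00778). Their ratios were 1.04, 0.78 and 0.81 on the male array, and 0.44, 0.55 and 0.81 on the female array. Probe positions relative to the floxed exons are not given, so these probes do not check the genotype. The Y-linked gene Ddx3y gave a processed signal in the female cDKO RNA that was 12.6% of that in the male cDKO RNA, and was not above background in the female control RNA. For Eif2s3y, also Y-linked, that share was 9.52%. The female cDKO RNA thus held Y-linked transcripts against its label, and ratios are therefore also given for each array alone. Markers of kidney epithelium stood higher in cDKO RNA on both arrays, with a summed intensity over the 9 markers tested of 21762 and 14437 in male and female cDKO RNA, against 5192 and 6673 in control RNA. Of those 9 markers 8 rose, at a median log2 ratio of 1.35, whereas Slc12a1, Umod and Nphs1 were too dim to test. Smooth muscle markers fell, 7 of 8 at adjusted p under 0.05, and none of 11 urothelium markers passed that threshold. All 11 urothelium markers, which include the keratin Krt5, were well above background.

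The probes are 60 letters long, and their positions are those of the mm9 build in the files. Examples shown are the probes of Krt14, which fell, and of Krt8 and Krt19, which were above control by a similar amount on both arrays. The second probe of Krt5, which is not the one that represents the gene, is also shown. The Krt14 probe spans 606 bases of the genome and so crosses an intron. They are given 5′ to 3′ in lower case, with strand.
Krt14, chr11:100064683-100065288, minus strand: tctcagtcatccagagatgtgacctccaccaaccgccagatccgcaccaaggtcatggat
Krt5 second probe, chr15:101542056-101542115, minus strand: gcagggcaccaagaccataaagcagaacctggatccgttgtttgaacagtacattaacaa
Krt8, chr15:101828827-101828886, minus strand: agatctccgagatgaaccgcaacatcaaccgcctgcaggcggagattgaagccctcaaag
Krt19, chr11:100002392-100002451, minus strand: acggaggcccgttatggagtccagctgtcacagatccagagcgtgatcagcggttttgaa

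Because keratins resemble each other, the probes of different genes were set letter against letter without gaps, at shifts of up to 20 positions. Of 1756 such pairs only 3 were at least 85% identical, and all 3 joined hair keratins of type II. These were the probes of Krt81, Krt83 and the brightest of Krt85, so the values of these 3 genes are uncertain as to which gene they report.

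Of the 47 keratin genes, 30 exceeded background clearly in both RNAs of at least 1 genotype. Krt28, a keratin of the inner root sheath of hair, was so in 3 of the 4 RNAs, and the other 29 in all 4. The 17 others are keratins of hair or of differentiating layers. Of these, 12 were above background in no RNA (Krt2, Krt24, Krt26, Krt27, Krt32, Krt39, Krt40, Krt71, Krt74, Krt77, Krt83 and Krt84), and 5 in 1 or 2 RNAs. Krt76 and Krt82 were above background in both RNAs of the male array and neither of the female array. Krt25 was so in female cDKO RNA, Krt35 in male cDKO RNA and Krt34 in male control RNA. All 6 keratins of simple epithelium and all 5 of basal and activated epithelium were above background, against 8 of 12 keratins of differentiating layers, 3 of 8 of the inner root sheath and 5 of 13 of hair and nail.

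Of these 30 genes 29 could be tested, with limma across all genes and Benjamini-Hochberg adjustment. Krt1, a suprabasal keratin of epidermis, rose, and the type I keratins Krt14 and Krt17 fell. The 3 calls among 29 keratins (10.3%) stand beside 4.45% of the 23409 genes tested. The 1 higher call stands beside 2.19% of all genes higher and the 2 lower calls beside 2.26% lower. No keratin differed 2-fold or more in one direction on both arrays, as 1.14% of all genes did (0.41% higher, 0.726% lower), and none did so at 1.5-fold, as 3.22% of all genes did. At an unadjusted p under 0.05 there were 7 keratins of 29, beside 3751 of 23409 genes. The median log2 ratio of cDKO over control was 0.036 for the keratins, against 0.0046 for all genes. Of the 29 keratins 19 were within 0.2 of 0, a share not counted over all genes.

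**Figure D1:**
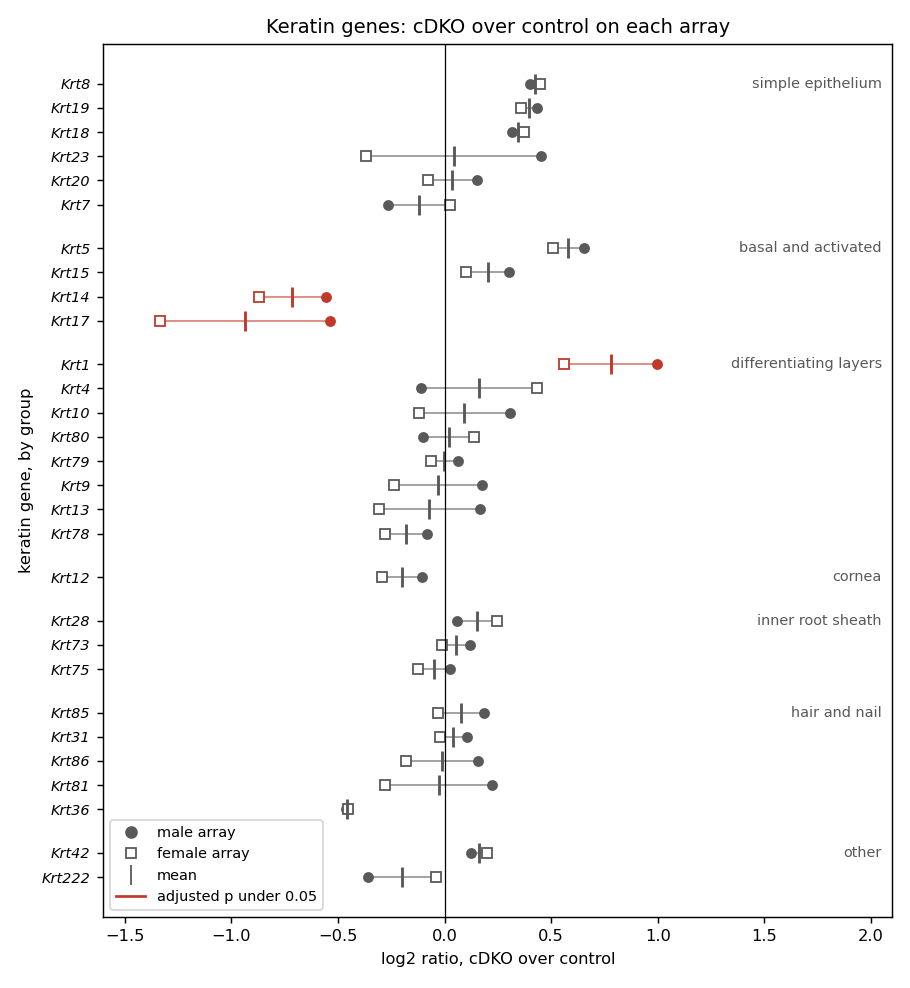
The log2 ratio of cDKO over control (horizontal axis) is plotted for the 29 keratins tested, grouped by the epithelium they belong to, with the male array as filled circles, the female array as open squares and their mean as a bar. Krt1 lies to the right of 0 and Krt14 and Krt17 to the left on both arrays (red, adjusted p under 0.05), while 15 genes have the arrays on opposite sides of 0.

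Much of the family had no direction shared by the arrays. There were 8 keratins above 0 on both arrays and 6 below 0 on both, beside 31.7% and 28.0% of all genes, and 59.7% of all genes had the same sign on both. The other 15 keratins had opposite signs. The median ratio of the keratins was 0.13 (male array) and -0.04 (female array), against 0.0035 and 0.018 for all genes. Of the 29 keratins 20 had the higher ratio on the male array, a share not counted over all genes. Markers of mesothelium, the covering layer that also makes keratins, had a median of 0.53 (male array) and -0.19 (female array) over the 6 of 7 that were tested (Lrrn4 was too dim). Their summed intensity was 44749 and 40749 in male and female cDKO RNA, against 33154 and 42711 in male and female control RNA. Most of this came from Upk3b, also a uroplakin, with 24545.9 and 25640.4 in cDKO RNA and 20018.5 and 23680.8 in control RNA. Upk3b was above 0 on both arrays, and the other 5 markers had opposite signs. The part of mesothelium in the keratin ratios was not tested. Type I and type II genes had like medians, 0.039 over 16 type I genes and 0.020 over 13 type II genes. On the male array alone these were 0.14 and 0.12.

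Krt17 and Krt14 showed the lowest ratios of the family. Krt17 is induced in injured or activated epithelium and is a keratin of hair follicles. Its normalized intensity was 255 and 178 in male and female cDKO RNA, against 370 and 449 in male and female control RNA. The cDKO value lay below the control value on each array, as for 28.0% of all genes. Intensities were normalized within each array only, so they are compared within an array and not between the arrays. The log2 ratio was -0.54 (male array) and -1.33 (female array), with a mean of -0.93 ± 0.56 (SD, n = 2; limma adjusted p = 0.0092). The spot was dim, with processed signals of 30.0 and 24.9 in cDKO RNA against 69.1 and 96.9 in control RNA, and from these the mean was -1.58 with an adjusted p of 0.0566 in limma. That call was thus lost with the processed signals, and the probe lies at chr11:100117535-100117594 on the minus strand.

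Krt14, the type I keratin of basal cells that pairs with Krt5, had an intensity of 7220 and 5757 in male and female cDKO RNA, against 10601 and 10531 in male and female control RNA. The cDKO value lay below the control value on each array. Its log2 ratio was -0.55 (male array) and -0.87 (female array), with a mean of -0.71 ± 0.22 (SD, n = 2; limma adjusted p = 0.0221). This is a level 1.64-fold higher in control RNA. The call was lost with processed signals (-0.72, adjusted p = 0.226) and with median centring in place of loess (-0.60, adjusted p = 0.823 in limma), at a ratio of similar size. In whole ureters, fewer Krt14-positive cells and less Krt14 RNA per cell cannot be told apart, and this holds for every ratio here.

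Krt5, the type II partner of Krt14, had values on the other side of control. Its intensity was 90244 and 81038 in male and female cDKO RNA, against 57324 and 57039 in male and female control RNA. The log2 ratio was 0.65 (male array) and 0.51 (female array; mean 0.58 ± 0.10, SD, n = 2; 95% interval 0.23 to 0.93). It missed the threshold, with a limma adjusted p of 0.0624. With an intensity trend in limma, a robust variance or a stricter filter on dim probes it passed, at adjusted p of 0.00703, 0.0406 and 0.0425. The second Krt5 probe, whose sequence is given above, was lower in size at 0.20 and 0.40 (mean 0.30, adjusted p = 0.413 in limma), so the 2 probes share the direction and differ in amount.

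The difference between the partners was similar on both arrays. Krt5 minus Krt14 was 1.21 (male array) and 1.38 (female array) log2 units, with a mean of 1.29 ± 0.12 (SD, n = 2). It ranged from 1.15 to 1.37 over the other processing settings. It is 1 of 6 partner pairs computed, and with 2 arrays an exact two-sided sign-flip test cannot go below p = 0.5. Krt15, another type I keratin of basal cells, did not share the position of Krt14: its log2 ratio was 0.30 (male array) and 0.10 (female array; mean 0.20, 95% interval -0.15 to 0.55), and Krt5 minus Krt15 was 0.38 ± 0.039. Trp63, which encodes the transcription factor of basal epithelial cells, had -0.52 and -0.12 (adjusted p = 0.405 in limma).

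Krt16, the fifth of the basal and activated keratins and known from wounded skin, had no test because its only spot was marked as non-uniform on both arrays. Its processed signals were 4800 and 2670 in male and female cDKO RNA, against 2575 and 7048 in male and female control RNA. The 2 arrays went opposite ways, at log2 ratios of 0.90 (male array) and -1.40 (female array). Over the 4 tested genes of the group, 0 rose and 2 fell, with a median ratio of -0.26 (male array -0.12, female array -0.39).

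**Figure D2:**
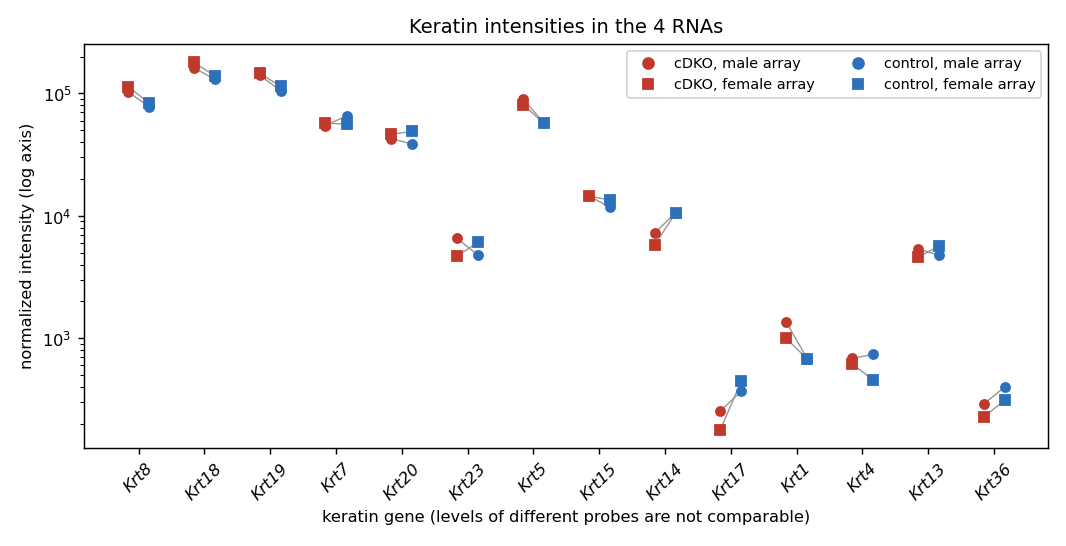
Normalized intensity on a log axis is plotted for 14 keratins in each of the 4 RNAs, with cDKO RNA in red left of control RNA in blue, circles for the male array and squares for the female array, and lines joining the RNAs of an array. Krt5, Krt8, Krt18, Krt19 and Krt1 are higher in cDKO RNA on both arrays, Krt14, Krt17 and Krt36 lower, and heights of different genes are not comparable.

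The main keratins of simple epithelium were a little above control on both arrays, and none of the 6 genes in the group passed the test. Krt8, the type II chain of simple epithelia, had an intensity of 102899 and 113865 in male and female cDKO RNA, against 77887 and 83444 in male and female control RNA. Its log2 ratio was 0.40 (male array) and 0.45 (female array), with a mean of 0.43 ± 0.033 (SD, n = 2), a 95% interval of 0.078 to 0.77 and a limma adjusted p of 0.198. The interval is not adjusted for the number of genes.

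Its type I partners had nearly the same ratio. Krt18 had 161962 and 179305 in male and female cDKO RNA, against 130065 and 138708 in male and female control RNA, with log2 ratios of 0.32 and 0.37 (mean 0.34 ± 0.038, SD, n = 2; limma adjusted p = 0.330). Krt19, a type I chain of ducts and urothelium, had 141256 and 146287 in male and female cDKO RNA, against 104668 and 114083 in male and female control RNA, with log2 ratios of 0.43 and 0.36 (mean 0.40 ± 0.052, SD, n = 2; limma adjusted p = 0.241). For all 3 genes the cDKO value lay above the control value on each array, as for 31.7% of all genes. Krt8 minus Krt18 was 0.085 and 0.078 on the male and female arrays, and Krt8 minus Krt19 was -0.031 and 0.090, so the partners lay close together on each array.

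These simple keratins are also keratins of kidney tubules and ducts. Beside their ratios stand the 9 kidney markers, of which 8 rose, with a median ratio over all 9 of 2.02 (male array) and 1.37 (female array). Aqp2, the water channel of collecting ducts, was the ninth, with 0.73 (male array) and -0.15 (female array; adjusted p = 0.545 in limma). The part of kidney cells in the ratios of Krt8, Krt18, Krt19 and Krt5 was not tested.

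The other members of the group showed no shared direction. Krt7, the type II chain of ducts and urothelium, had 54641 and 57141 in male and female cDKO RNA, against 65563 and 56191 in male and female control RNA (mean log2 ratio -0.12, 95% interval -0.47 to 0.24; male array -0.26, female array 0.02). Krt20, a marker of superficial urothelial cells, had 42749 and 46335 in male and female cDKO RNA, against 38513 and 48948 in male and female control RNA. Its mean log2 ratio was 0.036 with a 95% interval of -0.32 to 0.39 (male array 0.15, female array -0.08). Krt23, a type I keratin, had 0.45 (male array) and -0.37 (female array; mean 0.043, 95% interval -0.37 to 0.46). In these 3 genes the arrays had opposite signs, as in 9424 of the 23409 genes tested. The medians of the 6 genes were 0.36 (male array) and 0.19 (female array), and 0.19 for the mean ratios.

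Krt1 had the highest ratio of the family. It is made in epidermal cells as they leave the basal layer, paired with Krt10. Its intensity was 1360 and 999 in male and female cDKO RNA, against 681 and 678 in male and female control RNA. The cDKO value lay above the control value on each array. The log2 ratio was 1.00 (male array) and 0.56 (female array), with a mean of 0.78 ± 0.31 (SD, n = 2; limma adjusted p = 0.0147), a level 1.72-fold higher in cDKO RNA. The call was lost with processed signals (0.91, adjusted p = 0.167) and with median centring (0.75, adjusted p = 0.402 in limma), at ratios of similar size. The probe lies at chr15:101676107-101676166 on the minus strand.

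Krt10, its type I partner, did not follow on both arrays. It had 8529 and 7357 in male and female cDKO RNA, against 6894 and 7998 in male and female control RNA, with log2 ratios of 0.31 and -0.12 (limma adjusted p = 0.891). The position given for this Krt10 probe spans only 21 bases, and a second Krt10 probe had 0.37 (male array) and -0.03 (female array). With the first probe, Krt1 minus Krt10 was 0.69 (male array) and 0.68 (female array). The list of markers of epidermis and hair follicle includes Krt1 and Krt10 themselves. Of its 7 tested markers Krt1 alone rose, and Flg and Krt71 were too dim to test. The summed intensity of these 7, Krt1 and Krt10 included, was 46356 and 41015 in male and female cDKO RNA. It was 41913 and 39570 in male and female control RNA. Lor, the major protein of the cornified envelope, had 0.48 and 0.61 (adjusted p = 0.0825 in limma). The other tested markers of the list did not share this: Ivl had -0.04 and 0.22, Tchh 0.53 and -0.10, Krtdap 0.23 and -0.22, and Casp14 0.00086 and 0.064. The part of skin cells in the ratio of Krt1 was not tested.

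Krt4 and Krt13 form the pair of suprabasal cells in mucosal stratified epithelia and are found in urothelium. Krt4 had log2 ratios of -0.11 (male array) and 0.43 (female array; mean 0.16, 95% interval -0.22 to 0.54). Krt13 had 0.17 and -0.31 (mean -0.07, 95% interval -0.44 to 0.30), and its second probe had -0.14 and -0.49. The 2 genes thus lay on opposite sides of 0 on each array, and their difference was -0.28 (male array) and 0.74 (female array). The other tested keratins of differentiating layers, Krt9, Krt78, Krt79 and Krt80, had mean ratios between -0.18 and 0.020. On the male array alone they had 0.18, -0.08, 0.07 and -0.10, and on the other array -0.24, -0.28, -0.07 and 0.14. The group had 1 gene higher and 0 lower among 8 tested, with a median of 0.0098 (male array 0.12, female array -0.09).

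Apart from Krt36, the tested keratins of hair and nail had mean ratios near control. Of 5 tested genes of hair and nail, 0 passed the test and the median was -0.012 (male array 0.16, female array -0.18). Krt36, a type I keratin of hair and tongue papillae, had the third lowest ratio of the family. Its intensity was 290 and 227 in male and female cDKO RNA, against 399 and 311 in male and female control RNA, with log2 ratios of -0.46 and -0.45 (mean -0.46 ± 0.0048, SD, n = 2; limma adjusted p = 0.159). The cDKO value lay below the control value on each array. The second probe gave -0.15 and -0.20, and the processed signals of the brightest gave -0.84. Krt85 and Krt81, whose probes resemble each other, had means of 0.079 (male array 0.19, female array -0.03) and -0.028 (male array 0.22, female array -0.28). Krt31 had 0.042 (male array 0.11, female array -0.02), and Krt86 had -0.012 (male array 0.16, female array -0.18).

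The remaining members were named to account for each gene. The inner root sheath keratins Krt28, Krt73 and Krt75 had mean log2 ratios of 0.15, 0.054 and -0.05. They had 0.06, 0.12 and 0.02 on the male array alone, and 0.24, -0.01 and -0.12 on the other. Krt12, the keratin of the cornea, had -0.20 (male array -0.10, female array -0.29). Krt42 had 0.16, with 0.13 (male array) and 0.20 (female array), and Krt222 had -0.20, with -0.36 and -0.04. None of these 6 passed the test.

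Genes that work with keratin filaments were set beside them. Desmosomes and plakins anchor keratins at cell contacts, and of 14 tested genes 0 rose and 0 fell, with a median ratio of 0.074 (male array 0.16, female array 0.086). The largest were Pkp1, a desmosomal plaque protein, at 0.50 (male array) and 0.29 (female array), and Dsp, which links keratins to the desmosome, at 0.49 and 0.25 (adjusted p = 0.246 and 0.296 in limma). Of 20 genes of general epithelial identity 1 rose, the tight junction gene Cldn3, at 1.65 and 0.88 (adjusted p = 0.000735 in limma), and the median was 0.051 (male array 0.11, female array -0.0060). The 5 uroplakins had a median of 0.16 (male array 0.29, female array 0.059) with 0 called. They are listed as plaque proteins of superficial urothelium, but Upk3b is also a mesothelium marker above. Upk2 and Upk3b had the largest ratios at 0.22 and 0.20 (male array 0.38 and 0.29). Of 11 tested genes of cornified envelope and hair follicle 0 were called, at a median of 0.032 (male array 0.15, female array 0.0054), with Lor and Tgm1 the largest at 0.55 and -0.29 (male array 0.48 and -0.17).

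Among intermediate filament genes of other cells, those of muscle had the lowest ratios. Of 15 tested, 3 fell and 0 rose. Des, the filament protein of muscle, had an intensity of 1927 and 1699 in male and female cDKO RNA, against 4988 and 6358 in male and female control RNA. Its log2 ratios were -1.37 and -1.90 (adjusted p = 2.57e-05 in limma). Synm, a partner of desmin, had -2.17 and -2.33 (adjusted p = 3.14e-07 in limma), and Nefl, a neurofilament chain, had -0.42 and -0.92 (adjusted p = 0.0423 in limma). Des is also one of the smooth muscle markers, which had a median of -2.41 (male array -2.34, female array -2.38). Vim, the filament protein of mesenchyme, had 0.29 and 0.23 (adjusted p = 0.494 in limma).

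**Figure D3:**
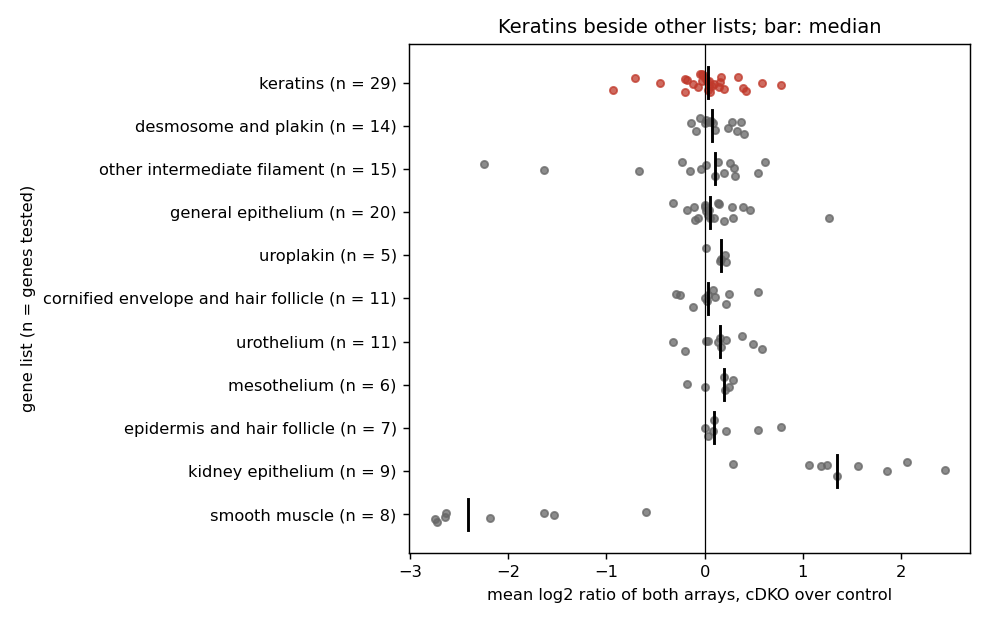
The mean log2 ratio of both arrays, cDKO over control, is plotted for each tested gene of the keratins (red, top) and of other lists (grey), with the median of each list as a bar. The 29 keratins lie between -0.93 and 0.78 around a median of 0.036, near the epithelial lists, while kidney markers (median 1.35) and smooth muscle markers (median -2.41) stand apart.

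The 3 calls depended on processing. The direction of Krt1, Krt14, Krt17, Krt5, Krt8, Krt18 and Krt19 was the same in each of the 9 other settings tried, but with the processed signals and with the authors' deposited table none of the 29 keratins was called, although 6 and 8 of them had an unadjusted p under 0.05 in limma.

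**Figure D4:**
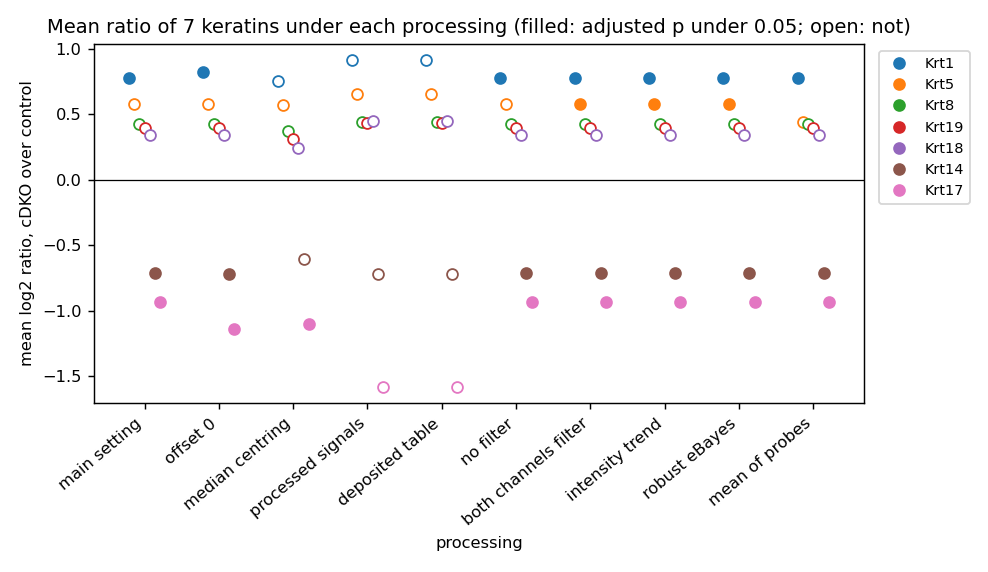
The mean log2 ratio, cDKO over control, of 7 keratins (colours) is plotted for each way of processing along the horizontal axis, with filled points for adjusted p under 0.05. The sign of each gene is the same throughout, Krt17 is lowest with the processed signals and the deposited table at -1.58, and Krt5 is filled only with the stricter filter, the intensity trend and robust eBayes.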

How the data were processed

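Per the file headers and the submitters' processing notes, the authors quantified 2 two-colour arrays with Agilent Feature Extraction 10.7.3.1. The deposited mean and background intensity of each spot are not normalized. From these the program derived the deposited processed signals, an intensity corrected for background and dye, and the deposited log10 ratio of red over green. The deposited flags mark saturated, non-uniform and dim spots. The value table from the authors holds a score of unstated scale. It matched the signed fold of processed signals, cDKO over control, after a floor of 26.92 and 20.38, within 0.01 log2 for 100% of 44397 spots, and each column had a median of 1.

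Spot intensities were background-corrected with normexp (offset 50), and loess was applied to each array with limma 3.58.1 in R 4.3.3. The 272 and 226 gene spots marked as outliers were left out. Ratios were turned to cDKO over control. A probe entered the test when it was well above background in both cDKO RNAs or in both control RNAs (29274 probes, 23409 genes by the brightest probe). lmFit and eBayes tested whether the mean ratio differed from 0, two-sided, with 1 residual and 13.9 prior degrees of freedom and Benjamini-Hochberg adjustment over all probes at 0.05. Intervals are limma's 95% intervals and use the same pooled spread, whereas each SD is that of the 2 values of a gene. The number of arrays limits the precision. Simulated data had 29274 probes, of which 100 changed 2-fold and 100 changed 4-fold. All simulated probes had the same SD, set from the median variance of the real probes. The test recovered 100 and 100, with 8 false calls. The SD of real probes differs from probe to probe, so these counts do not give the power of the test on these arrays.

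Of 60 keratin probes, the accession of 55 had the same symbol in a RefSeq table of GRCm38.p6, 1 had another (the Krt83 probe, there Krt87) and 4 had no match. Symbols are those of the files. The members and gene lists were chosen with earlier results of these data known. Named keratins are the called genes, 12 fixed genes of urothelium and basal cells, and the 3 highest and 3 lowest, and of each other list the called genes or else the 2 largest with the same direction on both arrays. The rest were named after their values were seen. Slide and scan were shared by both arrays and gave no block. Alternatives were the processed signals, median centring, normexp with offset 0, no filter or a filter on both channels, the deposited table, an intensity trend, robust eBayes, the mean of a gene's probes, and each array alone. The probe sequences of some hair keratins are not reported here.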

Additional observations from a re-analysis of the deposited data

Results flagged for a closer look

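For 5 keratins of the urothelium and its layers, the male and the female array gave ratios of cDKO over control on opposite sides of 0. The male ratio minus the female ratio was -0.54 for Krt4, -0.29 for Krt7, 0.48 for Krt13, 0.23 for Krt20 and 0.82 for Krt23, on the log2 scale. For the untested Krt16, whose spot was marked as non-uniform on both arrays, the processed signals gave a difference of 2.30. These differences between the arrays were not tested, because there was 1 array of each sex, and sex, dye orientation and replicate cannot be told apart. The same opposition of signs was seen in 15 of the 29 tested keratins, beside 9424 of the 23409 genes tested.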

How the results depend on the processing

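The number of keratins higher was 1 and became 0 with processed signals, median centring or the deposited table, and 2 with the filter on both channels, an intensity trend or robust eBayes. The number lower was 2 and became 0 with processed signals or the deposited table, and 1 (Krt17) with median centring. With the deposited table, limma's adjusted p was 0.413 for Krt1, 0.420 for Krt14 and 0.322 for Krt17. With the loess ratios 0 keratins were at least 2-fold on both arrays and 0 at least 1.5-fold, and with processed signals 1, Krt17, was at least 2-fold. Krt13 had 0.020 with median centring, against -0.07. The median of the keratins lay between -0.04 and 0.13 when either array was left out. Over all genes, 512 higher and 530 lower became 135 and 210 with processed signals, 180 and 250 with median centring, 934 and 663 with the trend, and 0 and 0 in limma with the deposited table, where 2436 had an unadjusted p under 0.05. Among other intermediate filament genes, the number higher was 0 and became 1 with the filter on both channels, robust eBayes or the mean of probes, and 2 with the trend. The number lower was 3 and became 0 with the deposited table, and 2 with processed signals, median centring, offset 0 or no filter on dim probes. The 1 higher gene of general epithelium became 0 with processed signals or the deposited table, and the median of that list became 0.15 with median centring. When either array was left out, the median was 0.086 to 0.16 for desmosomes and 0.0054 to 0.15 for cornified envelope and hair follicle. The cause of these changes was not tested. No paired analysis was possible beyond the main test because that test already uses the ratio of the 2 RNAs within each array. Dim spots limit Krt17 and Krt36, whose ratios depend on the background correction.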
